A study of Mus musculus with 6 samples.

Results

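A set of 50 genes that license and carry out DNA replication, or that mark entry into S phase, were followed in mouse embryonic fibroblasts with and without Lasp1. They were chosen by symbol in the supplied probe annotation, and all 50 of 50 were found among the 19057 genes with a named probe. Each gene is represented by its brightest probe over the 6 arrays. The cells were cultured fibroblasts of the C57Bl/6NCr strain, either Lasp1+/+ (wild type, 3 arrays) or Lasp1-/- (Lasp1 knockout, 3 arrays), and received no named treatment. LASP1 is an actin-binding LIM and SH3 domain protein, and the series title names cell migration and tumour growth as its subject. How the allele was disrupted, and the sex, age, passage and immortalisation of the cells, were not given in the labels. The labels do not say that the 3 arrays of a genotype came from separate cultures, so p-values measure the spread between these arrays, which may be technical.

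As background, a replication origin is first marked by the origin recognition complex. CDC6 and CDT1 then load the ring-shaped MCM2-7 helicase in G1, a step called licensing, which geminin blocks by holding CDT1. At the start of S phase CDC45 and the GINS complex join the ring and turn it into an active helicase. Primase and the polymerases alpha, delta and epsilon then copy the strands, with the sliding clamp PCNA and its loader RFC. Many of these genes are targets of E2F transcription factors, are transcribed around the G1/S boundary in dividing cells and are low in resting fibroblasts.

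RNA was measured on Illumina bead arrays, and the authors' deposited values are linear intensities with a median of 1000 on every array. No value lay below 593, and a mean under 1500 (geometric, over the 6 arrays) is called near background here, since differences that close to the floor may be understated. The upper quartile of an array lay between 2018 and 2330. Lasp1 itself read 135295, 148208 and 148809 in the wild-type arrays and 51904, 51019 and 49769.9 in the knockout arrays at its brightest probe, which left 35.3% of the signal in the knockout (-1.50 ± 0.068, log2 difference ± SE, limma adjusted p = 1.00e-05 over all probes). A second Lasp1 probe (ILMN_2879745) was left with 24.4% (-2.03 ± 0.15, limma adjusted p = 0.00018 over all probes). The third (ILMN_2596851), near background, was left with 83.3% and was not called (-0.26 ± 0.079, limma adjusted p = 0.121). Whether these probes lie in the disrupted part of the gene is not known here. All 10 fibroblast markers examined were above 1500 on average. Log2 differences below are knockout minus wild type, and a gene is called where limma's adjusted p over all 19057 genes is under 0.05.

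Replication genes that passed the test were all lower in the knockout, with 4 of the 6 MCM helicase genes lowest. Of the 50, 15 fell, 0 rose and 35 did not pass, and 0 were higher at an unadjusted p under 0.05 either, against 28 lower. At that unadjusted p, 2469 of all 19057 genes were lower and 1079 higher. For the 8372 genes with a mean of 1500 or more the counts were 2130 and 789. Among all genes tested, limma called 4.08% lower and 2.19% higher, 6.28% in either direction. The difference was negative for 47 of the 50, with a median of -0.25 beside -0.02 over all genes. Negative differences were also the more frequent kind over all genes, at 11057 of 19057, and at 5628 of the 8372 with a mean of 1500 or more. The knockout arrays all lay below the wild-type arrays for 28 of the 50 (56%), which held for 14.0% of all genes, and 21 overlapped. Of the 50, Pola1 alone, near background, had its knockout arrays above the wild-type arrays, an order found in 7.34% of all genes. Brighter genes were called more often in these arrays: 38 of the 50 had a mean of 1500 or more, and among all 8372 such genes 8.48% were called lower and 4.20% higher, 22.3% had all knockout arrays below the wild-type arrays, and the median difference was -0.094. All 15 called genes were among these 38, whose median was -0.31. The 12 genes near background gave 0 calls, with 3 lower at an unadjusted p under 0.05, and say little about their transcripts. In bulk RNA, fewer cells in S phase and less RNA per cell cannot be told apart. With knockout replicate 3 left out 6 of the 50 fell, with knockout replicate 2 left out 7 did, and with wild type replicate 3 left out 8 did.

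**Figure D1:**
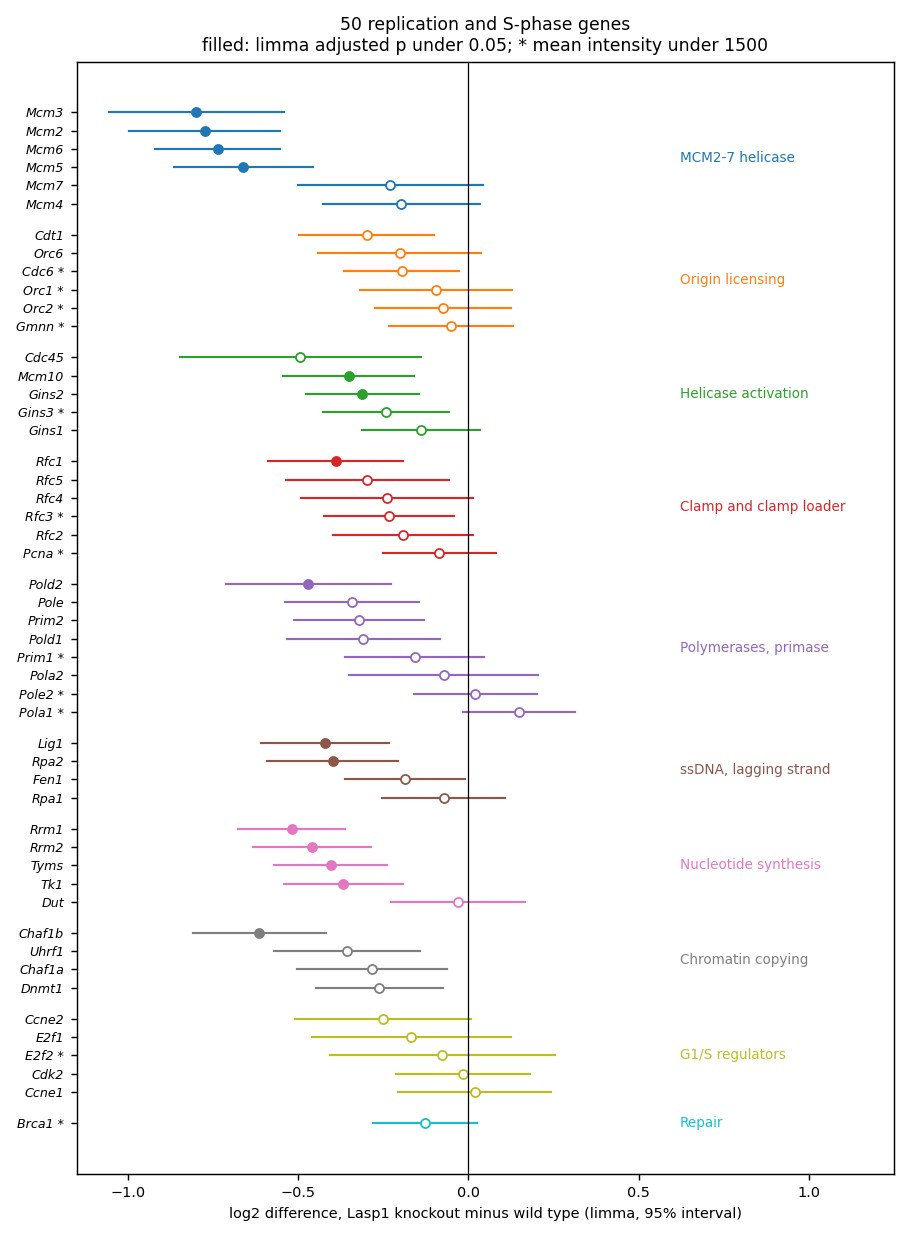
Log2 difference (knockout minus wild type, x axis) of each of the 50 genes with its 95% interval from limma, grouped by role. Filled points passed at an adjusted p under 0.05, and asterisks mark genes with a mean intensity under 1500. The 15 filled points all lie below 0, and 4 of the 6 MCM2-7 genes lie lowest, between -0.80 and -0.66.

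The MCM2-7 ring, made of a single copy of each of 6 related subunits, held the largest falls at the brightest probes. Mcm2, Mcm3, Mcm5 and Mcm6 fell, Mcm4 and Mcm7 did not pass, and the median difference of the 6 was -0.70, beside -0.24 for the other 44 genes. The falls were 66.7% of the 6, beside 4.08% of all genes and 8.48% of those with a mean of 1500 or more. Mcm2 (probe ILMN_1250907) read 12414, 13606 and 14489 in the wild-type arrays and 8733, 7027 and 7964 in the knockout arrays. Its means were 13503 ± 1042 against 7908 ± 854 (SD, n = 3 each), a difference of -0.77 ± 0.098 (SE), so that the knockout held 58.5% of the wild-type level (limma adjusted p = 0.00183). The groups were far apart, with the highest knockout array well under the lowest wild-type array. Mcm3 (ILMN_2851040) read 4381, 4713 and 5526 in the wild-type arrays and 3135, 2464 and 2805 in the knockout arrays. It fell to 57.5% of wild type (-0.80 ± 0.11, limma adjusted p = 0.0035), the largest difference of all 50 genes at their brightest probes. Mcm5 (ILMN_2742849) read 24544, 27112 and 25804 in the wild-type arrays and 17387, 14504 and 17232 in the knockout arrays, and fell to 63.3% (-0.66 ± 0.090, limma adjusted p = 0.00283). For both genes knockout replicate 2 was the lowest array, and the groups did not overlap.

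Mcm6 has 4 probes, which allows the fall to be read more than once. The brightest (ILMN_2803399) read 15420.0, 15241 and 15208 in the wild-type arrays and 9755, 9567 and 8285 in the knockout arrays, or 60% of wild type (-0.74 ± 0.082, limma adjusted p = 0.000864). The wild-type arrays lay within a narrow band, and every knockout array lay far under it. The next (ILMN_1233857) differed by -0.62 ± 0.066 and a dimmer one (ILMN_1217331) by -0.37 ± 0.085 (limma adjusted p over all probes = 0.000946 and 0.0459). The fourth was near background on all arrays and did not pass (ILMN_1236125, -0.27 ± 0.086, limma adjusted p = 0.144). All of these probes went down, with smaller differences at dimmer probes.

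Mcm4 and Mcm7 had smaller differences and did not pass. Mcm4 (ILMN_2936427), a core subunit of the ring, read 39863, 36866 and 41180.0 in the wild-type arrays and 31208, 39807 and 32357 in the knockout arrays. Knockout replicate 2 lay among the wild-type arrays and the other 2 knockout arrays below them, so the groups overlapped (-0.20 ± 0.10, 95% interval -0.43 to 0.034, limma adjusted p = 0.367). Its other 2 probes were near background. Mcm7 (ILMN_1213616) read 4533, 4210.4 and 3304 in the wild-type arrays and 3714, 3226 and 3263 in the knockout arrays, with wild type replicate 3 lying among the knockout arrays (-0.23 ± 0.12, 95% interval -0.50 to 0.041, limma adjusted p = 0.37). A second Mcm7 probe (ILMN_2673889) read 1833, 2485 and 1895 in the wild-type arrays and 1923, 1545 and 1560.2 in the knockout arrays, also with overlap (-0.30 ± 0.13). These intervals include both no change and a sizeable fall, so a missing call does not show that Mcm4 and Mcm7 were unchanged. Within each array, log2 Mcm4 minus the mean of the 4 called subunits was 1.53 to 1.73 in wild type and 1.92 to 2.51 in the knockout. For Mcm7 it was -2.01 to -1.40 and -1.20 to -1.12. The exact permutation p was 0.1 for each, the smallest that 3 against 3 arrays can give. The 4 subunits were picked by their calls in these same arrays, so no conclusion is drawn.

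**Figure D2:**
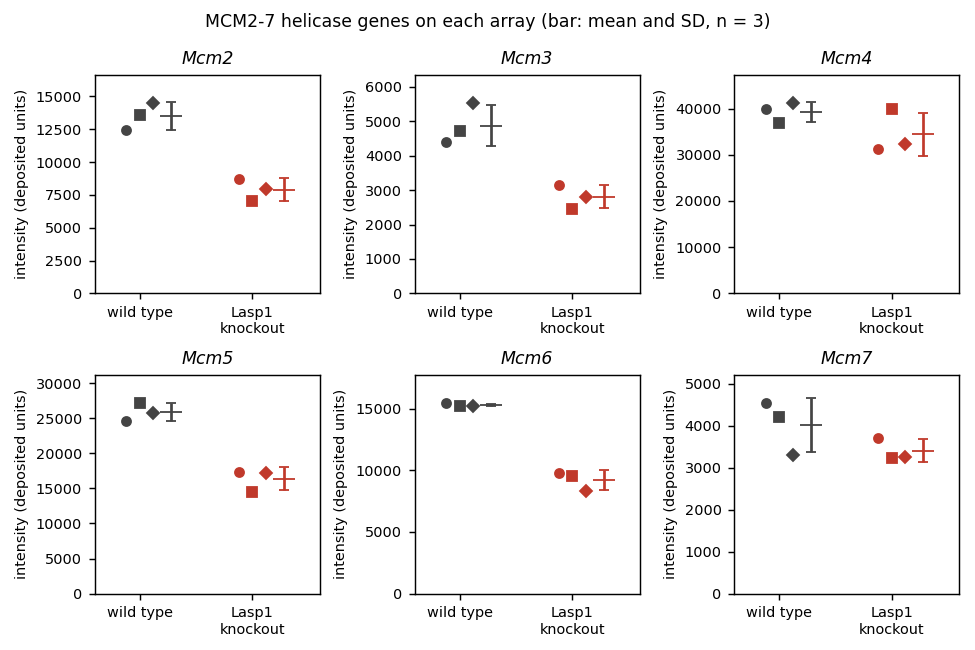
Deposited intensity (y axis, from 0) of the 6 MCM2-7 genes on each array, with circles, squares and diamonds for replicates 1, 2 and 3 and a bar for the mean and SD of each genotype (n = 3). The groups are separate for Mcm2, Mcm3, Mcm5 and Mcm6 and overlap for Mcm4 and Mcm7.

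Promoter sequences were looked up because the called helicase genes moved together and are textbook E2F targets. RefSeq windows of assembly GRCm38.p6, from 250 bases before to 50 after a gene's start, were matched for 42 of the 50 genes, with 52 windows in all. Ccne2, Gins1, Gins2, Gmnn, Mcm4, Pole, Prim2 and Rfc2 had no entry. An E2F-type motif was any of TTTGGCGC, TTTCCCGC, TTTGCCGC and TTTCGCGC on either strand, where matches on opposite strands can share bases. The sequences below are the windows of 5 helicase genes, 5′ to 3′ on the strand of the gene, with E2F-type motifs and CCAAT boxes (CCAAT or its complement ATTGG) in capitals.
Mcm2 (chr6:88898731-88899030, minus strand): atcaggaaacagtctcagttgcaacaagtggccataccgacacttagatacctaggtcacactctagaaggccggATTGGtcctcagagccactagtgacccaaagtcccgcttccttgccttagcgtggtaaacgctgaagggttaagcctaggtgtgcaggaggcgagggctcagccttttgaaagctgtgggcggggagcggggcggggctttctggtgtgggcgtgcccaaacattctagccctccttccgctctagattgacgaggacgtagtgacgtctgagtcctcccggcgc
Mcm3 (chr1:20820263-20820562, minus strand): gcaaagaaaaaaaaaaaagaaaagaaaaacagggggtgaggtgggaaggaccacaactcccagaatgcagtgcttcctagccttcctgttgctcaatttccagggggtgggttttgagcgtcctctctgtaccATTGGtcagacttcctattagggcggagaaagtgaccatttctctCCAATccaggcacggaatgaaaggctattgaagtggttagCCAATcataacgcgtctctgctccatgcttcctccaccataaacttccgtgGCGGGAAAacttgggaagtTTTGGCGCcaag
Mcm5 (chr8:75109259-75109558, plus strand): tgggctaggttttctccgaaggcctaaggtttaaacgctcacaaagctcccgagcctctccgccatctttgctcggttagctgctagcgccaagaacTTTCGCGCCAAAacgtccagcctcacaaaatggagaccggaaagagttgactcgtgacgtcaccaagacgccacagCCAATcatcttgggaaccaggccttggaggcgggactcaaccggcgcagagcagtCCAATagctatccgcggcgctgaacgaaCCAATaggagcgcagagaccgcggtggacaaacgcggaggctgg
Mcm6 (chr1:128359656-128359955, minus strand): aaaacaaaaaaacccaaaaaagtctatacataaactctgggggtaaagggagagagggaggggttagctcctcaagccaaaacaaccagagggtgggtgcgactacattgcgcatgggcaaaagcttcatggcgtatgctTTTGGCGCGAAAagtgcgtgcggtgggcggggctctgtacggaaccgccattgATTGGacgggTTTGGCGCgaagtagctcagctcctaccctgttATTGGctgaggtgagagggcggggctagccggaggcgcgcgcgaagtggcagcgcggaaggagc
Mcm7 (chr5:138171834-138172133, minus strand): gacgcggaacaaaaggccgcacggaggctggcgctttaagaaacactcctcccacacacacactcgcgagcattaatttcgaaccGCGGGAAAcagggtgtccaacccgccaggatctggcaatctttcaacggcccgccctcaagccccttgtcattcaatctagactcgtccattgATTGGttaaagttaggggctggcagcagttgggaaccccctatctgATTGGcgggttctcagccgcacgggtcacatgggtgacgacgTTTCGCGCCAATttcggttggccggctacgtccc

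Mcm3, Mcm5 and Mcm7 held 2 E2F-type matches each and Mcm6 held 3, while the letters did not occur in the Mcm2 window. In Mcm5 the 2 matches share bases within a single run of 12 letters, and in Mcm6 2 of the 3 do. Mcm3, Mcm5 and Mcm6, which fell, and Mcm7, which did not pass, thus all held at least 1 match. A second Mcm7 window, at chr5:138171217-138171516, held none. Over all genes of the list, 17 of 52 windows (32.7%) held an E2F-type match, and 2.26% of all 32851 windows did. By gene, it was present in 4 of 14 called genes with a window (28.6%) and in 13 of 28 that were not called (46.4%). The difference between these shares was not tested. CCAAT was found in 61.5% of the windows of the list and 37.4% of all windows. TTTGAA, the letters of the CHR element of genes expressed late in the cycle, was found in 13.5% and 17.9%. A match is a description of these letters and not evidence of a bound site.

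Of the 6 genes that mark origins and load the ring, 0 were called. At an unadjusted p under 0.05 by limma 2 were lower, as were 2469 of all 19057 genes. Their median difference was -0.15. Cdt1, the loading factor that is destroyed once S phase begins, read 6121, 7409.5 and 6397 in the wild-type arrays and 5584, 5399 and 5172 in the knockout arrays. Its groups did not overlap, at 81.3% of wild type, and it missed the threshold (-0.30 ± 0.088, limma adjusted p = 0.0886). Orc6, the smallest subunit of the origin recognition complex, overlapped between genotypes (-0.20 ± 0.11, 95% interval -0.44 to 0.037). The other 4 were near background: the ATPase loader Cdc6 (-0.20 ± 0.075), the recognition subunits Orc1 (-0.095 ± 0.098) and Orc2 (-0.075 ± 0.088), and the inhibitor Gmnn (-0.051 ± 0.080). Cdc6 was, with Cdt1, lower at an unadjusted p under 0.05, and its groups were separate (95% interval -0.36 to -0.028, limma adjusted p = 0.188). So near background, these 4 probes say little about whether licensing factors changed.

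Of 5 genes that activate the loaded helicase, 2 fell and 3 did not pass, with a median of -0.31. The falls were 40% of the group, beside 4.08% of all genes and 8.48% of those with a mean of 1500 or more. Mcm10, a scaffold needed when the origin fires and no part of the MCM2-7 ring, read 7322, 8087 and 6998 in the wild-type arrays and 6307, 5618 and 5624 in the knockout arrays. It fell to 78.3% (-0.35 ± 0.085, limma adjusted p = 0.0424), and a second probe above 1500 gave -0.31 ± 0.075 with separate groups and was not called. As the mean of all 4 probes, 2 of them near background, Mcm10 was -0.15 (limma adjusted p = 0.199). Gins2, a GINS subunit, read 3483, 3709 and 3711 in the wild-type arrays and 2879, 2815 and 3095 in the knockout arrays and fell to 80.6% (-0.31 ± 0.073, limma adjusted p = 0.0381). Its other 2 probes, both above 1500, had separate groups at -0.17 and -0.24 and were not called. Both lay close to the threshold: Mcm10 was called in 5 of 15 alternative settings and Gins2 in 4 of 15, although the direction held in all 15 for each. Mcm10 lost its call when wild type replicate 1, 2 or 3 or knockout replicate 2 or 3 was left out (-0.40 to -0.29). Gins2 lost its call when wild type replicate 2 or 3 or knockout replicate 1, 2 or 3 was left out (-0.35 to -0.28). Cdc45, which binds the ring together with GINS, read 3890.1, 5003 and 6089 in the wild-type arrays and 3763, 3014 and 3748 in the knockout arrays. Its difference was larger, at -0.49 ± 0.16, but the wild-type arrays were widely spread and it did not pass (limma adjusted p = 0.114). Gins1 (-0.14 ± 0.077) overlapped and Gins3 (-0.24 ± 0.082) was near background with separate groups.

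The clamp and its loader gave 1 fall among 6 genes, with a median of -0.24. This share, 16.7%, stands beside 4.08% of all genes and 8.48% of those with a mean of 1500 or more. Rfc1, the large subunit of the loader, read 13289, 14606 and 14925 in the wild-type arrays and 12018, 10546 and 10169.9 in the knockout arrays. It fell to 76.3% (-0.39 ± 0.088, limma adjusted p = 0.0317), and all knockout arrays were below all wild-type arrays. Rfc1 lost its call when wild type replicate 2 or 3 or knockout replicate 2 or 3 was left out (-0.37 to -0.34). The small subunits had smaller negative differences and did not pass, at -0.19 ± 0.091 for Rfc2, -0.23 ± 0.084 for Rfc3, -0.24 ± 0.11 for Rfc4 and -0.30 ± 0.11 for Rfc5. Rfc2 has 4 probes above 1500, all of them lower in the knockout (-0.41 to -0.16), and in 3 of them the groups were separate. Pcna, the sliding clamp, is abundant in dividing cells, but its only probe read 1101, 1135 and 1035 in the wild-type arrays and 1035, 984 and 1062 in the knockout arrays, near background. The array therefore gives no usable reading of Pcna.

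Of 8 polymerase and primase genes 1 fell, with a median of -0.23. That is 12.5%, beside 4.08% of all genes and 8.48% of those with a mean of 1500 or more. Pold2, the accessory subunit of the lagging-strand polymerase delta, read 8246, 10992 and 10314 in the wild-type arrays and 7385, 6869 and 6941 in the knockout arrays and fell to 72.2% (-0.47 ± 0.11, limma adjusted p = 0.0342). In it, wild type replicate 1 was closest to the knockout arrays. Pold2 lost its call when wild type replicate 2 or 3 or knockout replicate 1, 2 or 3 was left out (-0.50 to -0.39). The other 3 with separate groups below wild type did not pass: Pole, the catalytic subunit of the leading-strand polymerase (-0.34 ± 0.087, limma adjusted p = 0.0515), the large primase subunit Prim2 (-0.32 ± 0.084, 0.0582) and the catalytic subunit Pold1 (-0.31 ± 0.10, 0.119). Pole read 2574, 2498 and 2319.6 in the wild-type arrays and 2140.3, 1906 and 1792 in the knockout arrays, and was called in 5 of 15 alternative settings. Pola2, which tethers polymerase alpha to primase, overlapped (-0.073 ± 0.12, 95% interval -0.35 to 0.20). Pola1, Prim1 and Pole2 were near background, with differences of 0.15 ± 0.073, -0.16 ± 0.090 and 0.020 ± 0.080. The 5 genes of this group with a mean of 1500 or more all had a negative difference, as did 5628 of all 8372 such genes.

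Of 4 genes that coat single strands or finish lagging-strand fragments, 2 fell, with a median of -0.29. This share, 50%, stands beside 4.08% of all genes and 8.48% of those with a mean of 1500 or more. Lig1, the ligase that seals the fragments, read 4729, 5526 and 4796 in the wild-type arrays and 3904, 3608 and 3708 in the knockout arrays. It fell to 74.7% (-0.42 ± 0.084, limma adjusted p = 0.018). A dimmer Lig1 probe, ILMN_2657356, read 1837, 2176 and 2514 in the wild-type arrays and 1535, 1458 and 1416 in the knockout arrays and gave a larger difference (-0.56 ± 0.11). Both probes put every knockout array under every wild-type array. As the mean of all 4 Lig1 probes, of which 2 were near background, the difference was -0.23 (limma adjusted p = 0.0912). Rpa2, the middle subunit of the single-strand binding protein, read 2811, 2924 and 3020.3 in the wild-type arrays and 2408, 1999 and 2250.4 in the knockout arrays and fell to 75.8% (-0.40 ± 0.086, limma adjusted p = 0.0252). With its 2 probes near background averaged in, Rpa2 was -0.16 (limma adjusted p = 0.158). Lig1 lost its call when wild type replicate 3 or knockout replicate 2 or 3 was left out (-0.45 to -0.40). Rpa2 lost its call when wild type replicate 3 or knockout replicate 2 or 3 was left out (-0.41 to -0.33). Rpa1, the large subunit of the same protein, differed little and overlapped, with a 95% interval of -0.25 to 0.11. The flap nuclease Fen1 had separate groups but did not pass (-0.19 ± 0.078, limma adjusted p = 0.233).

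Nucleotide synthesis was the group with the largest share of falls: 4 of 5 genes, with a median of -0.40. That is 80%, beside 4.08% of all genes and 8.48% of those with a mean of 1500 or more. The ranking depended on the setting. With normexp background correction Rrm1, Rrm2, Tyms and Tk1 were not called (limma adjusted p = 0.0859, 0.112, 0.168 and 0.231). Both subunits of ribonucleotide reductase, the enzyme that makes deoxyribonucleotides, were lower. The large subunit Rrm1 read 21649, 22308 and 22809 in the wild-type arrays and 16224, 15268 and 15118 in the knockout arrays, or 69.8% of wild type (-0.52 ± 0.070, limma adjusted p = 0.0026). The small subunit Rrm2, made in S phase, read 6975, 6626 and 6669 in the wild-type arrays and 5284, 4601 and 4885 in the knockout arrays, or 72.8% (-0.46 ± 0.077, limma adjusted p = 0.00837). A second probe of each was also called: -0.50 ± 0.10 for Rrm1 and -0.92 ± 0.17 for Rrm2. The thymidylate synthase gene Tyms read 9247, 9124 and 8462 in the wild-type arrays and 6846, 6450.2 and 6975 in the knockout arrays, and fell to 75.6% (-0.40 ± 0.074, limma adjusted p = 0.0123). The salvage kinase Tk1 read 11899, 12973 and 12221 in the wild-type arrays and 10289.9, 9163 and 9324 in the knockout arrays, and fell to 77.5% (-0.37 ± 0.078, limma adjusted p = 0.0236). At these probes the groups were separate in all 4 genes. The second probes above 1500 of Tyms and Tk1 were not called: Tyms gave -0.35 ± 0.085 with separate groups, and Tk1 (ILMN_2893926) gave -0.18 ± 0.093 with overlap. Of the 2 Tk1 probes near background, ILMN_2611858 had its knockout arrays above the wild-type arrays (0.19 ± 0.069). As the mean of all its probes, Tyms was -0.16 and Tk1 -0.093, and neither was called (limma adjusted p = 0.133 and 0.517). Rrm2 lost its call when knockout replicate 3 was left out (-0.45). Tyms lost its call when knockout replicate 2 or 3 was left out (-0.43 to -0.37). Tk1 lost its call when wild type replicate 3 or knockout replicate 2 or 3 was left out (-0.38 to -0.34). Rrm1 was called whichever array was left out. Dut, the dUTPase that keeps uracil out of DNA, overlapped between genotypes (-0.032 ± 0.087, 95% interval -0.23 to 0.17).

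Among 4 genes that copy chromatin behind the fork, 1 fell and all 4 had separate groups, with a median of -0.32. Among all genes with a mean of 1500 or more, 8.48% were called lower and 22.3% had all knockout arrays below the wild-type arrays. Chaf1b, a subunit of the histone chaperone CAF-1, read 9252, 11237 and 9879 in the wild-type arrays and 6807, 6465 and 6514 in the knockout arrays. At 65.4% of wild type (-0.61 ± 0.086, limma adjusted p = 0.00326) it was the largest fall outside the helicase at the brightest probes. Its partner Chaf1a differed less (-0.28 ± 0.098, limma adjusted p = 0.145) and did not pass. Uhrf1, which recognises hemimethylated DNA, and Dnmt1, the methyltransferase it recruits, differed by -0.36 ± 0.095 and -0.26 ± 0.082 (limma adjusted p = 0.0632 and 0.11).

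The regulators of S-phase entry were not called. At the brightest probes of E2f1, E2f2, Ccne1, Ccne2 and Cdk2, limma called 0, with 0 at an unadjusted p under 0.05. All 5 overlapped between genotypes at these probes (median -0.08). E2f1, the activating transcription factor, read 11047, 15312 and 11092 in the wild-type arrays and 11076, 11789 and 10146 in the knockout arrays, with wild type replicate 2 alone above the rest (-0.17 ± 0.13, 95% interval -0.46 to 0.12). Cyclin E1 (Ccne1) read 2057, 2674 and 2327 in the wild-type arrays and 2434, 2283 and 2389 in the knockout arrays, with wild type replicate 1 lowest and wild type replicate 2 highest (0.018 ± 0.099, 95% interval -0.21 to 0.24). Cyclin E2 (Ccne2) had a negative difference with a wide interval (-0.51 to 0.0084). Their kinase Cdk2 had a 95% interval around 0 at its brightest probe (-0.21 to 0.18), whereas its 3 dimmer probes differed by -0.21, -0.31 and -0.33 and were not called. E2f2 was near background (-0.077 ± 0.15). Brca1, the repair gene of the list, was near background too, with separate groups and a small difference (-0.13 ± 0.067, limma adjusted p = 0.374). Whether these regulators differed less than the helicase was not tested.

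**Figure D3:**
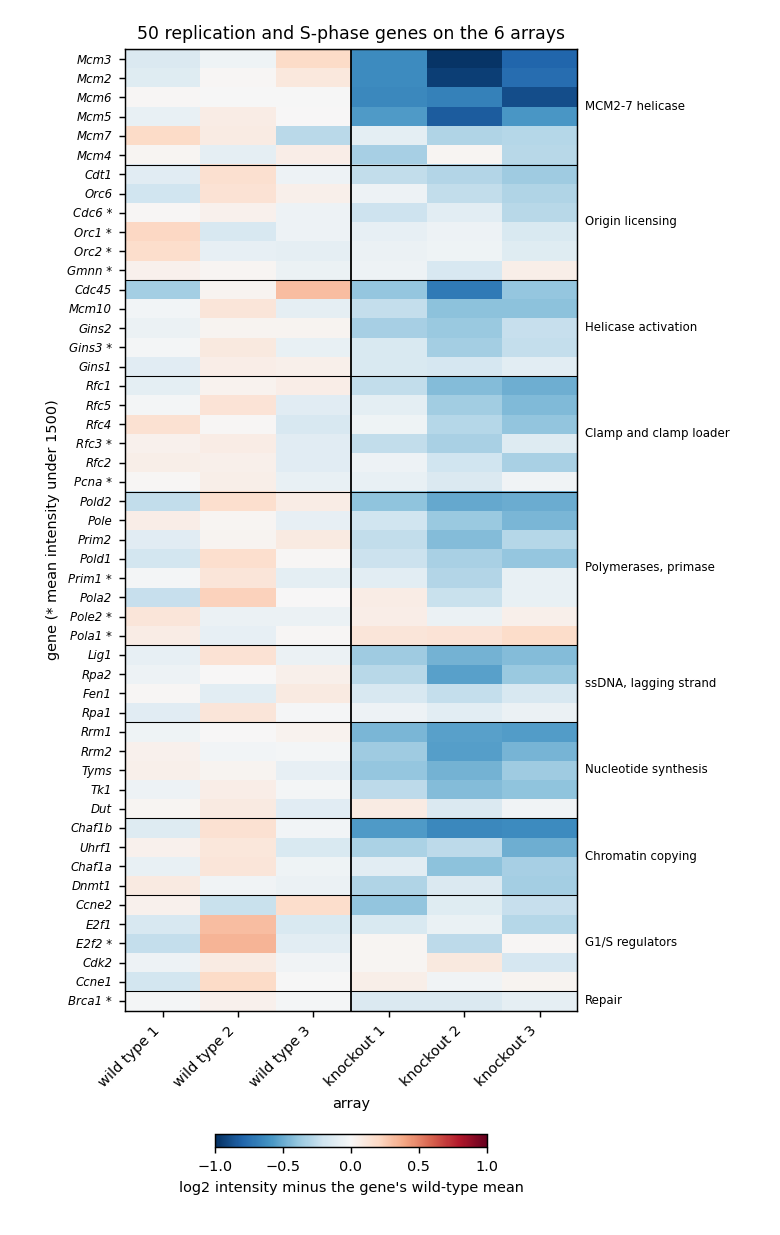
Log2 intensity of the 50 genes (rows, grouped by role) on the 6 arrays (columns), minus the gene's wild-type mean, with blue for lower and red for higher. The knockout columns are bluest for Mcm2, Mcm3, Mcm5 and Mcm6, and on average knockout replicates 2 and 3 are bluer than replicate 1.

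Arrays of a genotype also differed among themselves. Over the 38 genes with a mean of 1500 or more, the mean deviation from each gene's average over the 6 arrays was 0.11, 0.23 and 0.16 in wild type replicates 1, 2 and 3 and -0.091, -0.21 and -0.20 in the knockout. Wild type replicate 2 was the highest array for 18 of these genes, and knockout replicates 2 and 3 were the lowest for 19 and 14. The upper quartile of all probes followed part of that order, with 2330 in wild type replicate 2, 2283 in knockout replicate 1 and 2018 in knockout replicate 2. When every array was centred on its upper quartile, 17 of the 50 were called lower and 0 higher, and after quantile normalization 16 and 0. For the 6 helicase genes the deviations were 0.26, 0.29 and 0.30 in wild type and -0.20, -0.33 and -0.31 in the knockout. Of the 25 genes with several probes, 12 had over 1 probe above 1500, and all 30 of those probes had a negative difference. Among all 8372 genes with a mean of 1500 or more, the difference was negative for 5628.

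**Figure D4:**
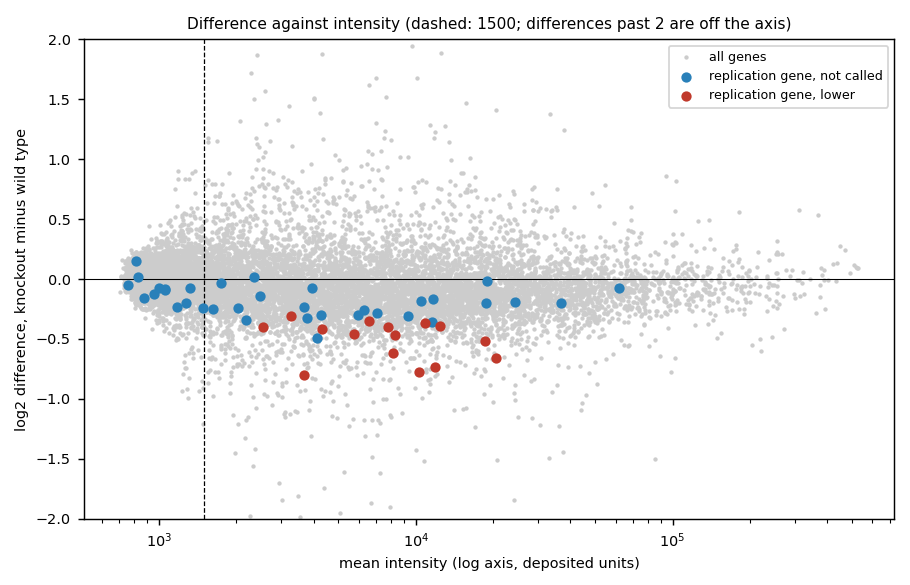
Log2 difference (y axis) against mean intensity over the 6 arrays (x axis, log scale) for all 19057 genes in grey, with the 50 replication genes in colour and a dashed line at 1500. The 15 called genes lie between -0.80 and -0.31 at mean intensities above the line, and 0 of the 12 replication genes left of it passed.

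Other genes of the same pathway, from a separate list of 62 measured genes, gave 5 falls, 0 rises and 57 genes that did not pass. The falls made up 8.06% of the list, beside 4.08% of all genes and 8.48% of those with a mean of 1500 or more. There were 23 lower and 2 higher at an unadjusted p under 0.05, beside 2469 and 1079 of all 19057 genes, and the median was -0.16. Esco2, which establishes cohesion of the new sister strands, fell most (-0.63 ± 0.077, limma adjusted p = 0.00149) and read 4427, 4311 and 4901 in the wild-type arrays and 3041, 2901 and 2864 in the knockout arrays. The PCNA-binding protein gene Pclaf (-0.46 ± 0.094), the recombination cofactor Rad51ap1 (-0.39 ± 0.075), the nuclease subunit Rnaseh2b (-0.36 ± 0.068) and the histone chaperone Nasp (-0.36 ± 0.071) also fell (limma adjusted p at most 0.0199). All 5 had separate groups. Pclaf lost its call when wild type replicate 3 or knockout replicate 1, 2 or 3 was left out (-0.50 to -0.42). Rad51ap1 lost its call when wild type replicate 3 or knockout replicate 1 or 3 was left out (-0.38 to -0.37). Rnaseh2b lost its call when wild type replicate 3 or knockout replicate 3 was left out (-0.37 to -0.35). Nasp lost its call when wild type replicate 3 or knockout replicate 2 or 3 was left out (-0.34 to -0.33). As the mean of all its probes Nasp was -0.13 (limma adjusted p = 0.287), and with normexp background correction Rad51ap1 was -0.60 (limma adjusted p = 0.0697). The count of 5 was sensitive to single arrays: leaving out replicate 1 of either genotype gave 8, leaving out knockout replicate 2 gave 3, and leaving out replicate 3 of either genotype gave 1. Skp2, a ubiquitin ligase subunit that promotes S-phase entry, was near background and had its knockout arrays above the wild-type arrays but did not pass (0.30 ± 0.11, limma adjusted p = 0.15).

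Genes of mitosis, read beside the replication genes, gave 10 falls, 0 rises (0 at an unadjusted p under 0.05) and 18 of 28 that did not pass, with a median of -0.36. The falls were 35.7% of the measured mitosis genes, beside 4.08% of all genes and 8.48% of those with a mean of 1500 or more. The checkpoint kinase gene Bub1b (-0.65 ± 0.091), the spindle motor Kif11 (-0.67 ± 0.10) and the kinase Plk1 (-0.47 ± 0.072) had the smallest p (limma adjusted p at most 0.00522). As the mean of all its probes, Kif11 was -0.31 and still called (limma adjusted p = 0.0235). Averaged in the same way, Top2a moved from -0.58 to -0.027 and lost its call (limma adjusted p = 0.931). Cdk1 (-0.23), Mad2l1 (-0.28) and Prc1 (-0.24) lost their calls too (limma adjusted p = 0.0824, 0.0568 and 0.0893). Leaving out wild type replicate 3 or knockout replicate 2 gave 6 falls, and leaving out knockout replicate 3 gave 4. Of 12 G1 cyclins, kinases and inhibitors, 2 fell (16.7%, beside the same 4.08% and 8.48%) and 10 did not pass. Both falls were in inhibitors of CDK4 and CDK6, p18 (Cdkn2c, -0.71 ± 0.086, limma adjusted p = 0.00146) and p19 (Cdkn2d, -0.44 ± 0.098, limma adjusted p = 0.0301). Cdkn2d lost its call when wild type replicate 2 or 3 or knockout replicate 2 or 3 was left out (-0.48 to -0.36). At an unadjusted limma p under 0.05, 4 genes of this list were lower and 2 higher, beside 2469 and 1079 of all 19057 genes. Besides the 2 falls, Cdk4 (-0.38 ± 0.11) and Ccnd3 (-0.28 ± 0.11) were lower. The inhibitor Cdkn2b (0.46 ± 0.12) and the cyclin D2 gene Ccnd2 (0.38 ± 0.14) were higher. The groups were separate for Cdk4 and Cdkn2b (limma adjusted p = 0.0847 and 0.0612). The cyclin D1 gene Ccnd1 (-0.013 ± 0.11) and the inhibitor Cdkn1a (0.012 ± 0.12) overlapped between genotypes.

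**Figure D5:**
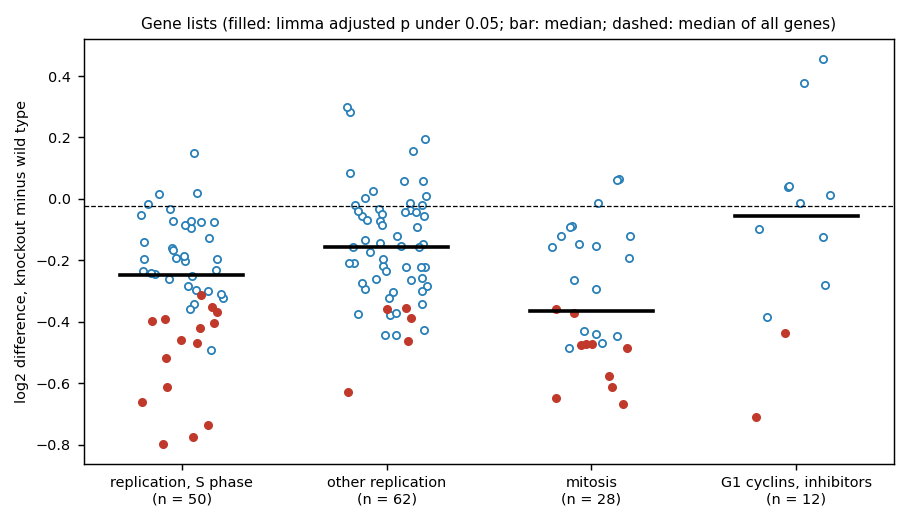
Log2 difference of each measured gene (points; filled where called) in the 50 replication and S-phase genes, the other replication genes, the mitosis genes and the G1 genes, with a bar at the median of each list. The medians are -0.25, -0.16, -0.36 and -0.06, beside a dashed line at the median of all genes (-0.02).

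Markers of the labelled cell type and of other cell types moved as well. The counts stand beside 4.08% of all genes called lower and 2.19% higher. Among genes with a mean of 1500 or more these shares were 8.48% and 4.20%. Of 10 fibroblast markers 4 fell (Col1a2, Pdgfrb, Thy1 and Dcn), and their summed intensity was 971266 to 1122310.0 in wild type and 794722 to 851282 in the knockout. Of 6 epithelial markers 2 fell, Krt14 (-2.59) and Krt8 (-0.71), while Krt5, Krt18, Epcam and Cdh1 were near background. Krt18 went the other way, with its knockout arrays above the wild-type arrays (0.18 ± 0.077), and was not called. The sum of the 6 was 20052 to 25092 in wild type and 8144 to 8354 in the knockout. Krt14 made up most of the wild-type sum, at 13646 to 18540, and read 2540 to 2596 in the knockout. Of 4 leukocyte markers the macrophage lysozyme Lyz2 rose and Ptprc, Csf1r and Adgre1 were near background, with a sum of 6303 to 7349 in wild type and 8574 to 8965 in the knockout. Of 3 neural and glial markers Sox10 fell and the other 2 were near background (sum 4916 to 6055 in wild type and 3968 to 4871 in the knockout). Limma called 0 of 5 endothelial, 5 skeletal muscle and 3 erythroid markers, with 1 endothelial marker lower and 1 higher and 1 muscle marker higher at an unadjusted p under 0.05. The part of any cell mixture in the fall of the replication genes was not tested.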

How the data were processed

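Per the labels' protocols, labelled cRNA of the 6 samples was read on Illumina bead arrays. The authors' deposited table holds linear probe intensities, 45281 probes per array, each array scaled to a median of 1000. No source used here names the scanner software, the background handling or the bead summary. Arrays give no counts, so their number limits the precision.

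Of the probes, 34885 had 1 gene symbol, 18 several and 10378 none in the supplied annotation, and the last 2 kinds were left out. The brightest probe by its mean over the 6 arrays stood for each of 19057 genes. Limma 3.58.1 (R 4.3.3) was fitted to log2 intensities (lmFit, then eBayes, 4 residual and 5.13 prior degrees of freedom), with genotype as the only term. Two-sided p-values received the Benjamini-Hochberg adjustment across the 19057 genes (threshold 0.05), and the fit was tested on simulated data. The genes, their roles and the other lists were chosen with earlier results of these data known, so counts are given beside the share of all genes called and no set test was run. The level of 1500 for near background was chosen after the values had been seen. All 50 genes are accounted for. Of the other replication genes those called are named, and of the mitosis and G1 lists up to 3 called genes by p. Named after their values had been seen were Ccnd1, Ccnd2, Ccnd3, Cdk4, Cdkn1a, Cdkn2b, Skp2, Top2a, Cdk1, Mad2l1, Prc1 and the markers. Alternatives were quantile normalization, upper-quartile centring, normexp background correction (offset 50), 2 filters on dim genes, a mean-variance trend with robust eBayes, array weights, averaging a gene's probes, a replicate block and dropping each array in turn.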

Additional observations from a re-analysis of the deposited data

How the results depend on the processing

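The calls of Mcm2, Mcm3, Mcm5, Mcm6 and Chaf1b held in all 15 alternatives, and the direction of all 15 called genes did too. Mcm2 to Mcm7 gave 4 falls in every alternative, and 0 of the 50 rose in any. The number of falls among the 50 was 5 with normexp background correction, 26 with array weights and 6 with the replicate block, and 6 to 18 when an array was left out. Testing only genes with a mean of 1500 or more, a filter chosen after seeing the data, gave 13. Other replication genes fell in 1, 18 and 1 cases with the same 3 settings, in 11 with upper-quartile centring, and in 1 to 8 without an array. They rose in 2 cases with quantile normalization, 1 with upper-quartile centring, 2 with array weights and 0 to 2 without an array. Mitosis genes fell in 2 with normexp, 16 with array weights, 2 with the replicate block and 4 to 14 without an array. G1 genes fell in 1, 4 and 1 with these settings and 1 to 3 without an array. The cause of these shifts was not tested. Over all genes the calls were 778 lower and 418 higher, against 316 and 222 with normexp, 2282 and 985 with array weights and 236 and 179 with the replicate block, and quantile normalization moved the split to 1083 and 1009. Upper-quartile centring gave 1136 and 726.

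The labels number the arrays 1 to 3 in each genotype. Deviations of same-numbered arrays from their genotype means correlated at -0.41, -0.34 and 0.22 over 11985 genes. With 3 arrays per genotype the deviations depend on each other, so these values cannot decide whether equal numbers were paired. Replicate 3 alone had its highest correlation with its own number.

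A total of 10 genes, 0 of them called, changed sign in at least 1 setting. With quantile normalization Pola2 was 0.0059, Rpa1 0.0045 and Cdk2 0.076, and with upper-quartile centring Cdk2 was 0.0053. With array weights Gmnn was 0.016, Dut 0.030 and E2f2 0.0070. When single arrays were left out, the difference ran from -0.17 to 0.0075 for Orc1, from -0.12 to 0.012 for Orc2, from -0.11 to 0.0040 for Gmnn, from -0.19 to 0.041 for Pola2, from -0.011 to 0.080 for Pole2, from -0.089 to 0.023 for Dut, from -0.20 to 0.094 for E2f2, from -0.075 to 0.11 for Ccne1 and from -0.073 to 0.059 for Cdk2. Probes near background limit what can be read of Pcna, Gmnn, Cdc6, Orc1, Orc2, Prim1, Pola1, Pole2, Rfc3, Gins3, E2f2 and Brca1.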
